A study of Mus musculus with 6 samples.

Results

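The 10 genes described here were chosen from the mTORC1 pathway by a rule that used names and no values. Earlier results of these data were known when the choice was made. The genes are Sesn1, Sesn2, Sesn3, Ddit4, Flcn, Rragc, Rragd, Mtor, Deptor and Eif4ebp1. They are 10 of the 47069 genes listed in the count table, and 10 of the 10 were among the 14165 genes with enough counts to be tested. The transcriptome was measured by RNA-seq of polyadenylated RNA in myoblasts of mdx mice, which lack dystrophin and are a model of Duchenne muscular dystrophy. There were 3 libraries from cells given vehicle, which was DMSO diluted in aqueous buffer, and 3 libraries from cells given 10 μM PSB-KD107, a synthetic agonist of the receptor Gpr18. The treated samples carry the name PSB-KD-1 in their titles, and the duration is 2 days in the sample records and 16 h in the study's methods. The muscle stem cells behind both groups were sorted by absence of Sca-1, CD45, CD31 and CD11b and presence of Itgb1 and Itga7, and were then grown in Ham's F10 medium with serum and FGF2. The methods describe male mdx mice of the C57BL/10 strain at 10 weeks of age for the injected animals, and do not say whether the cells came from such mice. The methods name 3 mice as the source of the cells, but no record ties a library to a mouse, so that the p-values given here measure the spread between these libraries.

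mTORC1 is a protein kinase complex at the surface of the lysosome that promotes translation and cell growth when amino acids and growth factors are present. Amino acids act through the Rag GTPases, which recruit the complex to the lysosome, and growth factors act through Rheb, which switches it on and is held back by the TSC complex. Sestrins and Ddit4 are induced by stress and restrain the complex, the first through the Rag branch and the second through TSC. In muscle the pathway governs protein synthesis, autophagy and the fusion of myoblasts. The comparison asked whether the transcripts of these regulators were higher or lower with PSB-KD107. RNA-seq measures transcript abundance, and neither the phosphorylation of mTORC1 substrates nor the location of the complex was measured.

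Transcripts of Eif4ebp1, Sesn2, Rragc and Rragd were higher in each PSB-KD107 library than in each vehicle library, by 1.28-fold to 1.62-fold. They encode a repressor of translation, a leucine-sensing inhibitor of mTORC1 and the 2 Rag GTPases whose nucleotide state folliculin controls. Ddit4, Sesn1, Sesn3, Flcn, Deptor and Mtor had groups that overlapped. In the quasi-likelihood test of edgeR, 0 of the 10 genes had an adjusted p-value under 0.05, as did 0.0% of all genes tested. Before adjustment, 4 of the 10 had p under 0.05, all of them higher, where this held for 9.4% of all genes tested (6.47% higher and 2.93% lower). Groups did not overlap for 4 of the 10, all with PSB-KD107 higher, beside 15.8% of all genes tested (9.2% higher and 6.59% lower). DESeq2 called 1 of the 10, Eif4ebp1, beside 2.77% of the genes it tested (2.1% higher and 0.666% lower). On simulated counts, 65 of 187 calls of DESeq2 were false, beside 6 of 72 calls of edgeR, which holds for the settings of that simulation. The measured counts behaved otherwise, with 407 calls of DESeq2 and 0 of edgeR over all genes. The simulated rates therefore cannot be carried over to the measured calls. Calls by DESeq2 alone remain uncertain, and the share of them that is false is not known. By sign alone, 8 of the 10 were higher, as were 49.9% of all genes tested, and their median log2 fold change was 0.32, beside -0.0007 over all genes.

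**Figure D1:**
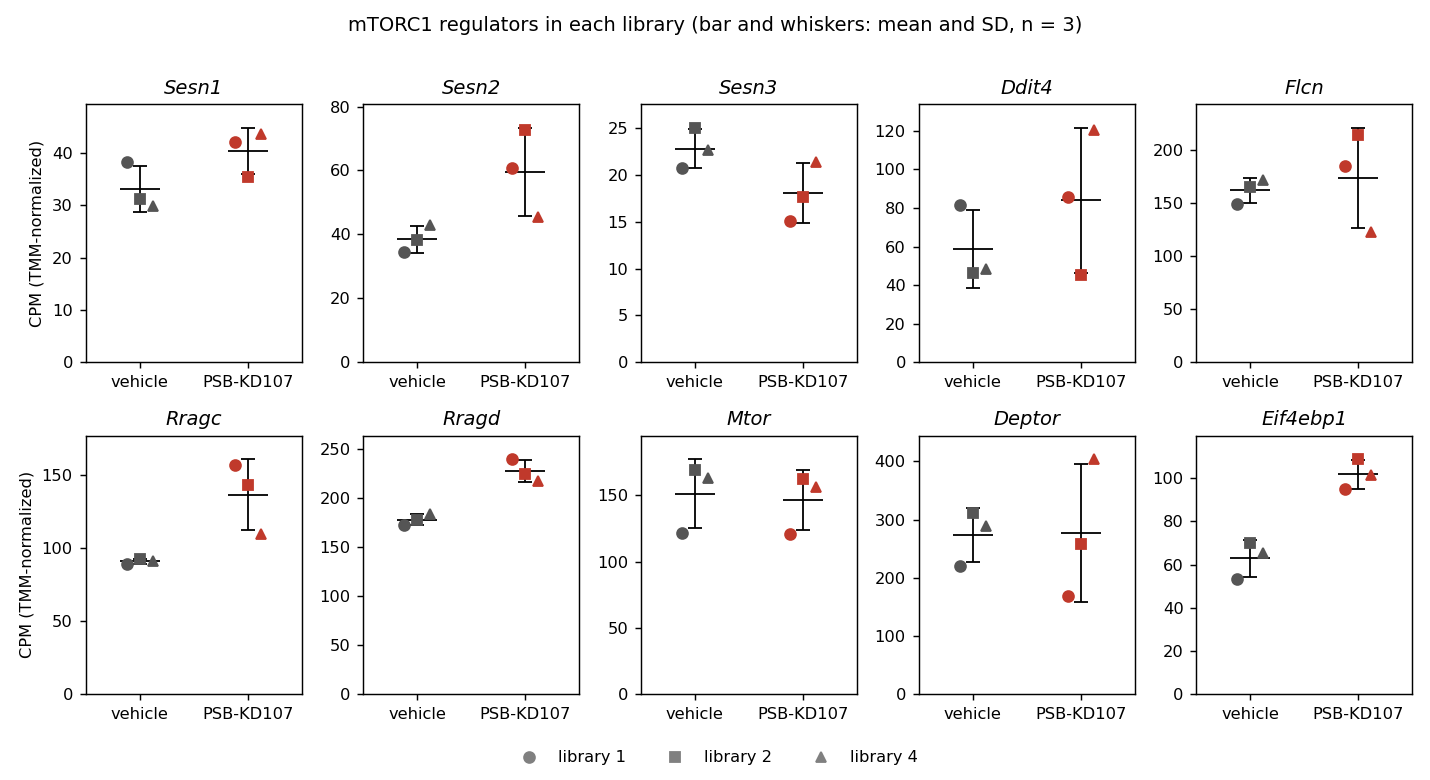
CPM (TMM-normalized, vertical axis, a separate scale for each gene starting at 0) of the 10 genes in the 3 vehicle libraries (grey) and the 3 PSB-KD107 libraries (red), with the mean and SD of each group. Points of the groups do not overlap for Sesn2, Rragc, Rragd and Eif4ebp1, and PSB-KD107 library 4 is the highest for Ddit4 (120.5) and Deptor (403.5) and the lowest for Flcn (122.6).

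Library totals lay between 30917613 and 48756794 counts, a ratio of 1.58, and 3 counts were worth between 0.0596 and 0.0962 CPM, the count scaled by the normalized total of its library. This limit includes counting error and nothing else. The 10 genes had between 548 and 14668 counts in a library, far above that limit. The 10 myoblast markers summed to between 27657 and 28487 CPM with vehicle and between 21531 and 24051 CPM with PSB-KD107, so that the sum was lower in each treated library. The sum was mostly Myh3, and the markers differed in direction, with 7 lower on average in the treated libraries and 3 higher, namely Des (3144 with vehicle and 3478 CPM with PSB-KD107), Itgb1 (682 and 841 CPM) and Myf5 (14.5 and 23.98 CPM). The records name the cells satellite cells, whose marker Pax7 averaged 59.5 CPM with vehicle and 32.0 CPM with PSB-KD107 (adjusted p = 0.209 in edgeR and 0.00193 in DESeq2). Myh3, a myosin of differentiating muscle cells, averaged 17794 and 13141 CPM (adjusted p = 0.493 in edgeR and 0.0328 in DESeq2). Mymk averaged 1338 and 1035 CPM (adjusted p = 0.399 in edgeR and 0.048 in DESeq2). Besides Pax7, Myh3 and Mymk, DESeq2 called none of the myoblast markers. Immune markers, of which 2 of 6 could be tested and Adgre1 was at 0, summed to 0.688 to 6.56 CPM over all libraries. Endothelial markers summed to at most 1.40 CPM, fibro-adipogenic markers to at most 10.7 CPM and adipocyte markers to at most 0.179 CPM, with Plin1 at 0. Markers of smooth muscle and pericytes summed to between 2024 and 3119 CPM with vehicle and between 1205 and 3970 CPM with PSB-KD107. Nearly all of that sum was Acta2, with means of 2610 and 2738 CPM. The other markers of this list were low, with means of 0.28 and 0.14 CPM for Myh11, 2.70 and 3.42 CPM for Rgs5, and 5.70 and 5.64 CPM for Cspg4. The part of these marker levels in the results below was not tested, and in RNA from whole cultures a smaller number of cells of a type and less RNA per cell cannot be told apart.

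Sestrins are stress proteins that bind GATOR2 and thereby restrain the Rag branch, and Sesn2 is also a leucine sensor. Sesn2 (ENSMUSG00000028893, chromosome 4 from 132492032 to 132510501, minus strand, in GRCm38) had 34.4, 38.3 and 42.9 CPM in vehicle libraries 1, 2 and 4, and 60.6, 72.7 and 45.3 CPM in PSB-KD107 libraries 1, 2 and 4. Treated libraries 1 and 2 stood well above vehicle, whereas treated library 4 exceeded the highest vehicle library only slightly. The group means were 38.5 ± 4.23 and 59.6 ± 13.7 CPM (SD, n = 3), a 1.55-fold difference with a 95% interval of 1.12 to 2.14. Its log2 fold change was 0.63 (SE 0.19, unadjusted p = 0.0166 and adjusted p = 0.407 in edgeR, adjusted p = 0.167 in DESeq2). Without PSB-KD107 library 4, the log2 fold change was 0.78 in DESeq2 and the gene was called (adjusted p = 0.00139). With any other library left out, DESeq2 did not call Sesn2 (adjusted p from 0.260 to 0.686). edgeR called no gene at all with a library left out, so its lack of a call is not particular to Sesn2.

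Sesn1 and Sesn3, the paralogs of Sesn2, leaned in opposite directions with overlapping groups. Sesn1 (ENSMUSG00000038332, chromosome 10 from 41809935 to 41908424) had 38.2, 31.1 and 29.9 CPM with vehicle and 42.0, 35.3 and 43.7 CPM with PSB-KD107. Treated library 2 fell within the vehicle range, and the log2 fold change was 0.29 (SE 0.14, 95% interval -0.06 to 0.64, adjusted p = 0.615 in edgeR). Sesn3 (ENSMUSG00000032009, chromosome 9 from 14275067 to 14333101) had 20.7, 25.0 and 22.6 CPM with vehicle and 15.1, 17.6 and 21.4 CPM with PSB-KD107. Here treated library 4 reached into the vehicle range, and the log2 fold change was -0.34 (SE 0.17, 95% interval -0.75 to 0.08, adjusted p = 0.615 in edgeR). Two-sided exact permutation tests over the libraries gave p = 0.2 for Sesn1 and for Sesn3, and p = 0.1 for Sesn2, the smallest that 3 libraries against 3 allow.

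Summed per kilobase of exon, the 3 sestrins together had 20.8, 20.5 and 21.3 CPM per kb in the vehicle libraries and 29.0, 30.96 and 25.4 CPM per kb in the PSB-KD107 libraries. The summed level hardly varied among vehicle libraries (20.9 ± 0.436 CPM per kb) and was higher in each treated library (28.5 ± 2.81 CPM per kb, SD, n = 3). Sesn2 made up 53.05 ± 5.20% of this sum with vehicle and 59.7 ± 8.15% with PSB-KD107, ranges that overlap. The share of Sesn3 was 7.15 ± 0.760% with vehicle and 4.21 ± 1.14% with PSB-KD107, with no overlap. Shares were not tested, and they depend on the exon length assigned to each gene: with the longest transcript in place of all exons, the share of Sesn2 was 49.8% and 57.2%.

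Ddit4, also known as REDD1, is induced by hypoxia, glucocorticoids and energy stress and activates the TSC complex against Rheb. Ddit4 (ENSMUSG00000020108, chromosome 10 from 59949669 to 59951834, minus strand) had 81.8, 46.1 and 48.1 CPM in vehicle libraries 1, 2 and 4, and 85.8, 45.5 and 120.5 CPM in PSB-KD107 libraries 1, 2 and 4. Each group thus held low and high libraries, and the lowest library of all was a treated one. The group means were 58.7 ± 20.0 and 83.9 ± 37.5 CPM (SD, n = 3), with a log2 fold change of 0.52 (SE 0.40, 95% interval -0.45 to 1.48, adjusted p = 0.731 in edgeR). The value rested on single libraries, since it was 0.16 without PSB-KD107 library 4, 0.83 without vehicle library 1 and 0.81 without PSB-KD107 library 2.

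The sequences upstream of Sesn2 and Ddit4 are shown because factors of the stress response and of hypoxia are known to induce these genes. The stretches come from RefSeq (GRCm38.p6), run 5′ to 3′ on the strand of the gene and stop where the gene model begins. Capitals mark ACGTG, a form of the core of the hypoxia response element, on either strand, and other forms were not searched.
Sesn2, chr4:132510502-132510706, minus strand: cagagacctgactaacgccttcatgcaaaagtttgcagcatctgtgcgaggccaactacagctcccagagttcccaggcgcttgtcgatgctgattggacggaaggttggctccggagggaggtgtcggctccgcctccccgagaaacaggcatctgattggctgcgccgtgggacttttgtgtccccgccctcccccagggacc
Ddit4, chr10:59951835-59952020, minus strand: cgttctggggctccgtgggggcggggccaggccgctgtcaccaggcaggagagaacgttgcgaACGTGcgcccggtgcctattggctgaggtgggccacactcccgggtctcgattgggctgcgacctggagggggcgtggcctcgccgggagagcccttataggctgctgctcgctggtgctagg
The Ddit4 stretch holds ACGTG 187 bases before the RefSeq start, and the Sesn2 stretch does not hold ACGTG. The core occurs in 16.6% of all 32851 RefSeq promoter windows, so its presence is common.

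The Rag GTPases work as dimers of RagA or RagB with RagC or RagD, and folliculin, encoded by Flcn, is the GTPase-activating protein of RagC and RagD. Rragc (ENSMUSG00000028646, chromosome 4 from 123917446 to 123936997) had 89.0, 92.4 and 90.7 CPM with vehicle and 156.6, 143.0 and 109.7 CPM with PSB-KD107. The vehicle libraries were nearly equal, and the treated libraries were all higher but spread apart, with library 4 the lowest of them. The group means were 90.7 ± 1.69 and 136.4 ± 24.1 CPM (SD, n = 3), a 1.504-fold difference (95% interval 1.18 to 1.92). The log2 fold change was 0.59 (SE 0.14, unadjusted p = 0.006 and adjusted p = 0.288 in edgeR, adjusted p = 0.0579 in DESeq2), and without PSB-KD107 library 4 DESeq2 gave 0.71 (adjusted p = 1.9e-08). With any other library left out, DESeq2 did not call Rragc (adjusted p from 0.1185 to 0.3746). With the library number as a block over all 6 libraries, DESeq2 called Rragc (0.56, adjusted p = 0.0457).

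Rragd, which encodes RagD and is a known target of TFEB and its relatives, moved less but with the smallest standard error of the 10 genes. Rragd (ENSMUSG00000028278, chromosome 4 from 32983037 to 33022180) had 172.5, 177.6 and 183.2 CPM with vehicle and 239.3, 224.8 and 217.3 CPM with PSB-KD107. Both groups were tight and clearly apart. The group means were 178 ± 5.36 and 227 ± 11.2 CPM (SD, n = 3), a 1.28-fold difference (95% interval 1.11 to 1.47). The log2 fold change was 0.35 (SE 0.09, unadjusted p = 0.00571 and adjusted p = 0.284 in edgeR, adjusted p = 0.0575 in DESeq2). DESeq2 called Rragd without PSB-KD107 library 4 (0.37, adjusted p = 0.0131). With any other library left out it did not (adjusted p from 0.0922 to 0.434). Nor did DESeq2 call Rragd with the library number as a block over all 6 libraries (adjusted p = 0.169). edgeR called no gene at all with a library left out, hence neither Rragc nor Rragd.

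Per kilobase of exon, Rragc and Rragd together had 60.0, 62.0 and 62.6 CPM per kb with vehicle and 93.1, 86.3 and 74.8 CPM per kb with PSB-KD107. Their partners Rraga and Rragb together had 57.7 ± 1.15 CPM per kb with vehicle and 54.9 ± 5.02 CPM per kb with PSB-KD107 (SD, n = 3). The summed level of the RagC and RagD transcripts was therefore higher in each treated library, while that of RagA and RagB overlapped between the groups. Rraga alone had a log2 fold change of -0.08 (SE 0.09, adjusted p = 0.820 in edgeR), and Rragb, at about 1 CPM, one of 0.82 with an SE of 0.47 (adjusted p = 0.646). The share of Rragc in the sum with Rragd was 44.1 ± 0.664% and 47.9 ± 3.54%, with overlap between 43.9% in PSB-KD107 library 4 and 44.6% in vehicle library 2.

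The upstream stretches of Rragc and Rragd are shown because these paralogs were higher together, and capitals mark CACGTG, an E-box that TFEB and other helix-loop-helix factors recognize.
Rragc, chr4:123917183-123917432, plus strand: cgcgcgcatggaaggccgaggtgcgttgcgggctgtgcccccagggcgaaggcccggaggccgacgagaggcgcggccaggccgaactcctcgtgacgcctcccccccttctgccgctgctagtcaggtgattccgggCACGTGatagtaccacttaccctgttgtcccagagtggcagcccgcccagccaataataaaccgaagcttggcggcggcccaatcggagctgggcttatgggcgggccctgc
Rragd, chr4:32982748-32982997, plus strand: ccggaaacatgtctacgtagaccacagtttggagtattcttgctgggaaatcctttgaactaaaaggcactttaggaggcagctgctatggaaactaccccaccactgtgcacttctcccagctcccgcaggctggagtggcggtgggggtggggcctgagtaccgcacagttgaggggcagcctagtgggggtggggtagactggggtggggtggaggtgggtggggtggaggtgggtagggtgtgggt
The Rragc stretch holds an E-box 112 bases before the RefSeq start and the Rragd stretch holds none. Of all windows, 6.02% hold this E-box, which also contains ACGTG on either strand. RefSeq windows were found for 8 of the 10 genes (9 windows, as Sesn1 has more than 1 start), and not for Deptor and Eif4ebp1. Over these 9 windows, both strands read, CACGTG was found in 1, ACGTG in 2, and TGACNNNGC, the core of the antioxidant response element, in 1, that of Sesn2 at 36 bases before the start and outside the stretch printed. This core is in 10.2% of all windows. Neither TGATGNAA, a core bound by ATF4 (3.45% of all windows), nor GTAAACA, a FoxO core (3.17%), was found in any of the 9, which says only that these letters are not within these windows.

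Folliculin showed no shared direction. Flcn (ENSMUSG00000032633, chromosome 11 from 59791408 to 59810016, minus strand) had 149.3, 165.7 and 171.7 CPM with vehicle and 184.9, 214.8 and 122.6 CPM with PSB-KD107. Treated libraries 1 and 2 were above every vehicle library and treated library 4 was below every one. The log2 fold change was 0.10 (SE 0.21, 95% interval -0.41 to 0.61, adjusted p = 0.902 in edgeR). It was 0.30 without PSB-KD107 library 4 and -0.08 without PSB-KD107 library 2, so its direction depends on a single library.

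Mtor encodes the catalytic kinase itself, and Deptor encodes a subunit that inhibits it. Mtor (ENSMUSG00000028991, chromosome 4 from 148448611 to 148557683) had 121.3, 168.8 and 163.4 CPM with vehicle and 120.6, 162.4 and 156.5 CPM with PSB-KD107. The ranges of the groups nearly coincide, with library 1 the lowest in each. The log2 fold change was -0.05 (SE 0.18, 95% interval -0.48 to 0.39, adjusted p = 0.950 in edgeR), and it turned to 0.03, 0.01 and 0.06 without vehicle library 2, vehicle library 4 and PSB-KD107 library 1.

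Deptor (ENSMUSG00000022419, chromosome 15 from 55112317 to 55259271) was the most abundant of the 10 genes in CPM and had the largest SD in CPM among treated libraries. It had 221, 311 and 289 CPM with vehicle and 168, 258 and 404 CPM with PSB-KD107. The lowest and the highest of the 6 libraries were both treated ones. The log2 fold change was 0.02 (SE 0.32, 95% interval -0.77 to 0.81, adjusted p = 0.989 in edgeR), and it was -0.36 without PSB-KD107 library 4 and -0.12 without vehicle library 1. The intervals of Mtor and Deptor leave room for differences in either direction, so the values do not show that these transcripts were equal between the groups.

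Eif4ebp1 encodes 4E-BP1, which binds the cap-binding protein eIF4E and blocks translation until mTORC1 phosphorylates it. Eif4ebp1 (ENSMUSG00000031490, chromosome 8 from 27260329 to 27276674) had 53.4, 70.0 and 65.3 CPM with vehicle and 95.05, 108.8 and 101.5 CPM with PSB-KD107. The gap between the groups was wider than the range within either of them. The group means were 62.9 ± 8.54 and 101.8 ± 6.87 CPM (SD, n = 3), a 1.62-fold difference (95% interval 1.30 to 2.01). It was the member with the smallest p-value, at rank 101 of all genes tested (unadjusted p = 0.00148 and adjusted p = 0.206 in edgeR, adjusted p = 0.00387 in DESeq2). Left-out libraries moved its log2 fold change only between 0.58 and 0.77 in edgeR, and DESeq2 lost the call without vehicle library 4 (adjusted p = 0.0522).

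Among the genes for 4E-BP proteins, Eif4ebp2 had 45.2 ± 2.76 CPM with vehicle and 44.3 ± 1.38 CPM with PSB-KD107 (SD, n = 3), a log2 fold change of -0.03 (SE 0.09, adjusted p = 0.940 in edgeR), and Eif4ebp3 had too few counts to be tested. Eif4ebp1 made up 74.6%, 81.3% and 79.1% of the family per kilobase of exon in the vehicle libraries and 84.7%, 86.2% and 86.2% in the PSB-KD107 libraries. Their binding partner Eif4e had a log2 fold change of 0.07 (SE 0.08, adjusted p = 0.811 in edgeR). The ratio of the 4E-BP transcripts to Eif4e, per kilobase of exon, was 1.73, 2.16 and 1.97 with vehicle and 2.503, 3.09 and 2.67 with PSB-KD107. Each treated library had a higher ratio than each vehicle library, a difference that was not tested.

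**Figure D2:**
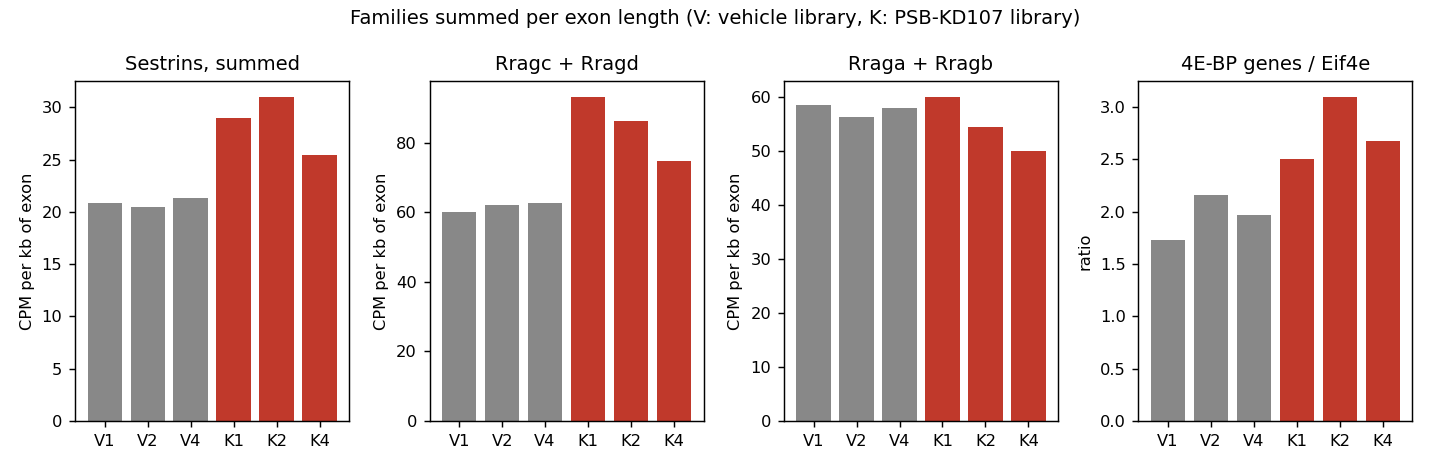
Summed levels of the sestrins, of Rragc with Rragd and of Rraga with Rragb in CPM per kilobase of exon, and the ratio of the 4E-BP genes to Eif4e (vertical axes from 0), in each library, with vehicle in grey (V) and PSB-KD107 in red (K). The treated bars are all above the vehicle bars for the sestrins (25.4 to 30.96 against 20.5 to 21.3), for Rragc with Rragd (74.8 to 93.1 against 60.0 to 62.6) and for the ratio (2.503 to 3.09 against 1.73 to 2.16), and overlap with them for Rraga with Rragb.

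Among themselves, the 10 genes covered a wide range of levels. Per kilobase of exon in vehicle cells, the order was Flcn (37.5 CPM per kb), Rragd (34.4), Ddit4 (33.4), Deptor (30.8), Eif4ebp1 (28.6), Rragc (27.2), Mtor (15.0), Sesn2 (11.1), Sesn1 (8.31) and Sesn3 (1.49). Neighbours overlapped in range from Flcn down to Rragc, and Mtor overlapped Sesn2, whereas Rragc and Mtor, Sesn2 and Sesn1, and Sesn1 and Sesn3 were apart. With PSB-KD107, Ddit4 (47.8 CPM per kb) and Eif4ebp1 (46.4) led the order and Sesn2 (17.1) stood above Mtor (14.5), but neighbours overlapped except for Mtor with Sesn1 (10.1) and Sesn1 with Sesn3 (1.18). Of the gene models that share positions with the 10 genes, the largest count was 55, for Gm9920 beside at least 8037 counts for Deptor. With the strand setting of the counting not given in the sources used here, reads of such partners cannot be told apart.

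**Figure D3:**
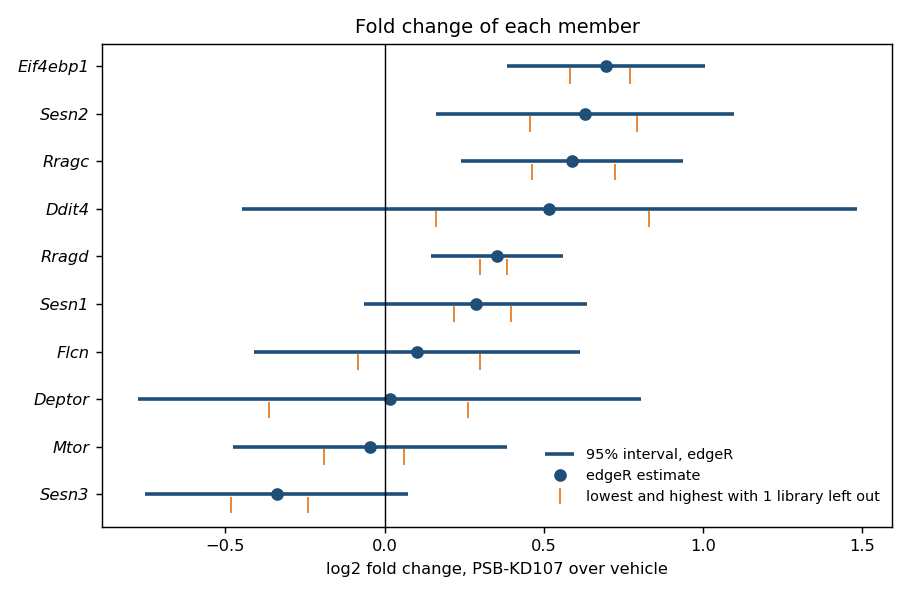
Log2 fold change of PSB-KD107 over vehicle (horizontal axis) for each of the 10 genes, ordered by size, with the 95% interval of edgeR's estimate as a line and the lowest and highest estimate with 1 library left out as orange ticks. Intervals exclude 0 for Eif4ebp1, Sesn2, Rragc and Rragd before adjustment over all genes, and the ticks lie on both sides of 0 for Flcn, Deptor and Mtor.

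For each of the 4 genes with p under 0.05 before adjustment, the genes with the most similar level across the 6 libraries were sought by the root mean square distance of mean-centred log2 CPM, a description that includes the difference between the groups. Closest to Sesn2 were Clcn6, a chloride transporter of late endosomes (0.0742), Arl8a, a lysosomal small GTPase (0.0800), and Aldh9a1, an aldehyde dehydrogenase (0.0854), where the median over all genes was 0.463. Closest to Rragc were Atp6v0b, a subunit of the proton pump of lysosomes (0.0463), the receptor Gpr146 (0.0577) and Gusb, a lysosomal glucuronidase (0.0624), with a median of 0.430. Rragd was nearest to Alas1, the first enzyme of heme synthesis (0.0187), Atxn2l (0.0302) and Mrpl47, of the mitochondrial ribosome (0.0349), with a median of 0.331. Eif4ebp1 was nearest to Nars, the asparaginyl-tRNA synthetase (0.0405), Slc7a1, a transporter of cationic amino acids (0.0444), and Angptl6 (0.0587), with a median of 0.468. These 12 neighbours had log2 fold changes between 0.33 and 0.75.

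The other genes of the pathway give the setting of these values, in 6 lists of 56 genes by role, of which 55 could be tested. Of the 55, 29 were higher and 26 lower, and their median log2 fold change was 0.03. Before adjustment, 6 of the higher and 5 of the lower genes had p under 0.05, and edgeR called 0 after adjustment. DESeq2 called 4 higher, each in the list of the Rag platform, and 1 lower.

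The Rag-Ragulator platform, which anchors the Rag GTPases on the lysosome, and the partners of folliculin comprised 10 genes tested, 8 higher and 2 lower, and their median log2 fold change was 0.44. Before adjustment, 5 had p under 0.05, all of them higher. Fnip2, a partner that folliculin needs for its activity, had 5.97, 6.27 and 7.29 CPM with vehicle and 20.1, 17.9 and 13.6 CPM with PSB-KD107. This was a log2 fold change of 1.40 (SE 0.20, adjusted p = 0.176 in edgeR and 6.2e-07 in DESeq2). Its paralog Fnip1 had 48.5, 71.0 and 71.4 CPM with vehicle and 99.6, 113.7 and 120.8 CPM with PSB-KD107, a log2 fold change of 0.81 (SE 0.18, adjusted p = 0.252 in edgeR and 0.0162 in DESeq2). Both partners were higher in each treated library, while Flcn itself overlapped between the groups. Of the Ragulator subunits, Lamtor3, Lamtor1 and Lamtor5 had log2 fold changes of 0.40, 0.48 and 0.51 (adjusted p = 0.230, 0.247 and 0.439 in edgeR, and 0.0111, 0.0284 and 0.256 in DESeq2), and Lamtor2 one of -0.08.

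GATOR1 inhibits the Rag GTPases, GATOR2 counters it and KICSTOR anchors GATOR1 at the lysosome. Of 12 genes tested, 4 were higher and 8 lower (median log2 fold change -0.08). The GATOR1 subunits Depdc5 and Nprl3 differed in opposite directions (0.33 and -0.38, SE 0.13 and 0.15, adjusted p = 0.514 and 0.521 in edgeR), and the GATOR2 subunit Wdr24 had 0.14 (SE 0.10). Of 5 other amino acid sensors, 3 were higher and 2 lower (median 0.08). Castor2, a paralog of the arginine sensor Castor1, had 123.5, 138.9 and 151.2 CPM with vehicle and 86.6, 105.8 and 79.2 CPM with PSB-KD107, lower in each treated library. Its log2 fold change was -0.61 (SE 0.14, adjusted p = 0.278 in edgeR and 0.0289 in DESeq2). Lars, the leucyl-tRNA synthetase, had 0.36 (SE 0.16, adjusted p = 0.560 in edgeR), and Bmt2, also called Samtor, which senses S-adenosylmethionine, had -0.14 (SE 0.12, adjusted p = 0.766).

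The growth factor branch differed little, with 4 of 6 genes of the TSC complex and Rheb higher and 2 lower (median log2 fold change 0.09). Rheb had 0.13 (SE 0.08), Tsc1 had 0.19 (SE 0.14) and Ddit4l, the paralog of Ddit4, had 0.25 (SE 0.16), with adjusted p = 0.666, 0.727 and 0.687 in edgeR. Of 10 subunits and assembly factors of the mTOR complexes, 4 were higher and 6 lower (median -0.08). The lowest p-values were those of Prr5, an mTORC2 subunit (-0.77, SE 0.28, adjusted p = 0.469), Rptor, which encodes raptor of mTORC1 (-0.22, SE 0.10, adjusted p = 0.584), and Tti1, a chaperone of the kinase (-0.21, SE 0.14, adjusted p = 0.694, all in edgeR). Of 12 substrates and translation factors tested, 6 were higher and 6 lower (median -0.0013). Pdcd4, an inhibitor of the helicase eIF4A, had -0.72 (SE 0.26, adjusted p = 0.467), and the S6 kinase genes Rps6kb1 and Rps6kb2 had -0.23 and -0.33 (SE 0.09 and 0.18, adjusted p = 0.526 and 0.649 in edgeR).

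**Figure D4:**
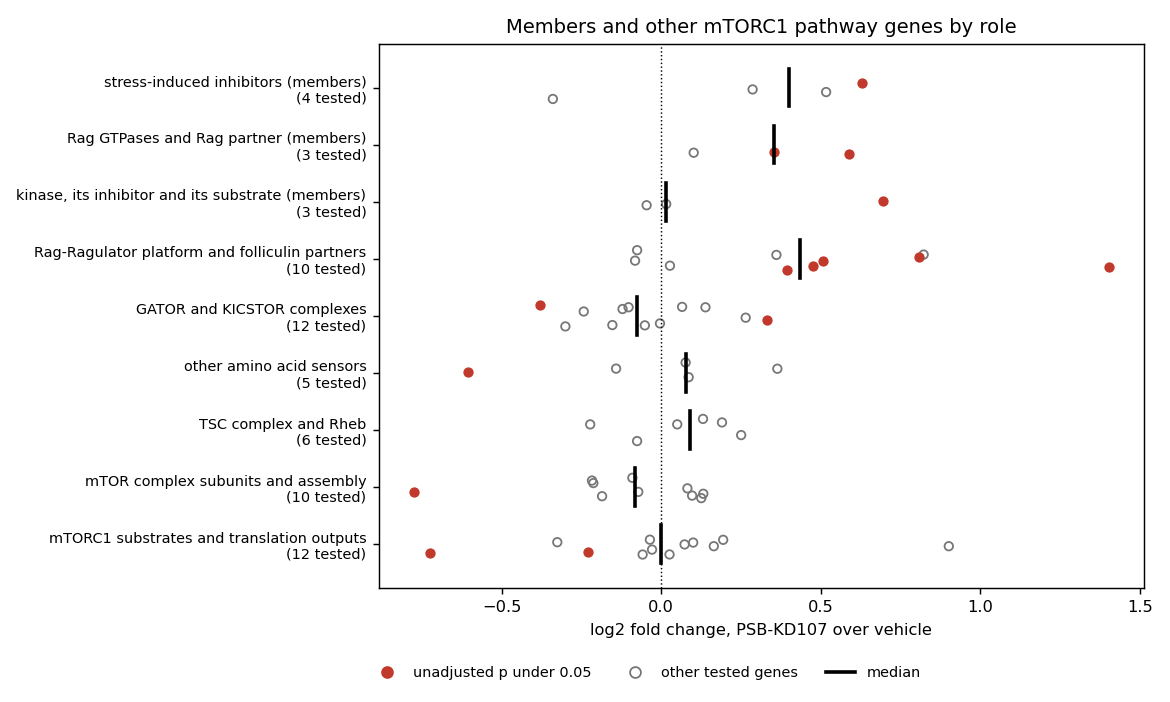
Log2 fold change of PSB-KD107 over vehicle (horizontal axis) for each tested gene of the pathway, by role (rows, the 10 genes described here in the upper 3), with genes at an unadjusted p-value under 0.05 filled in red and the median of a row as a bar. The Rag-Ragulator row reaches 1.40 for Fnip2 around a median of 0.44, and the medians of the other 5 lists lie between -0.08 and 0.09.

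For known inducers of these genes, lists of their other targets are described here and below, which do not include the 10 genes. These lists were chosen with earlier results of these data known. Whether any of these factors changed the levels of the 10 genes was not tested. ATF4, the factor of the amino acid response, induces Sesn2, Ddit4 and Eif4ebp1, and all 18 other genes of its program were higher (median log2 fold change 1.23). Before adjustment 17 of the 18 had p under 0.05, and DESeq2 called 13. Trib3, a pseudokinase, had 3.75, Atf5, a factor related to ATF4, 1.61, and Aldh18a1, of proline synthesis, 1.27 (SE 0.34, 0.14 and 0.11, adjusted p = 0.0738 for each in edgeR). TFEB and TFE3, which mTORC1 keeps out of the nucleus, induce Rragd, Rragc and Flcn, and all 16 genes of a list of their other targets and of the factors themselves were higher (median 0.51). Of these, 9 had p under 0.05 before adjustment and DESeq2 called 6. Tfeb, Tfe3 and Wipi1 had overlapping groups, and their log2 fold changes fell as low as -0.12, -0.08 and -0.13 in edgeR with 1 library left out. Hexa, a lysosomal hydrolase, had 0.89 (SE 0.09, adjusted p = 0.0874), Sqstm1, the autophagy receptor p62, 1.05 (SE 0.17), and Uvrag, of autophagosome maturation, 0.54 (SE 0.09, adjusted p = 0.185 in edgeR for each of the last pair).

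p53 induces Sesn1, Sesn2 and Ddit4, and of 12 other p53 targets 7 were higher and 5 lower (median log2 fold change 0.03), and 0 had p under 0.05 in edgeR before adjustment. Its leading genes were Phlda3 (0.25, SE 0.11), Btg2 (-0.74, SE 0.38) and Pmaip1 (-0.25, SE 0.30), with adjusted p = 0.555, 0.620 and 0.827. FoxO factors induce Sesn3, and of 11 other targets 9 were higher and 2 lower (median 0.34). Before adjustment, 4 of the higher and 1 of the lower targets had p under 0.05, and DESeq2 called 1 of each. Pdk4, which limits pyruvate oxidation, had 0.78 (SE 0.17), Cited2, a transcriptional co-regulator, 0.31 (SE 0.09), and Txnip, a thioredoxin-binding protein, -1.01 (SE 0.18), with adjusted p = 0.253, 0.382 and 0.202 in edgeR.

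Hypoxia, glucocorticoids and NRF2 are further inducers, the first pair of Ddit4 and the last of Sesn2. All 12 hypoxia targets were higher (median log2 fold change 1.60), and 3 of them had p under 0.05 before adjustment, namely Vegfa (1.59, SE 0.24), Ndrg1 (2.26, SE 0.45) and the glucose transporter Slc2a1 (1.33, SE 0.43). The median was 0.80 without PSB-KD107 library 4. Of 9 glucocorticoid targets, 8 were higher and 1 lower (median 0.44), and the 4 with p under 0.05 before adjustment were led by the metallothionein Mt2 (2.66, SE 0.58), Cebpd (1.30, SE 0.30) and Sgk1 (0.43, SE 0.12). All 10 NRF2 targets were higher (median 0.69), and 3 had p under 0.05 before adjustment, namely Hmox1 (1.64, SE 0.39), the cystine transporter Slc7a11 (4.57, SE 1.23) and Srxn1 (1.88, SE 0.77). That median was 0.10 without PSB-KD107 library 1 and 0.46 without vehicle library 4. After adjustment, edgeR called 0 genes of these 3 lists, and DESeq2 called 2 hypoxia targets (Vegfa and Ndrg1), 2 glucocorticoid targets (Mt2 and Cebpd) and 2 NRF2 targets (Hmox1 and Slc7a11), all higher.

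Within the groups, the levels of the 10 genes can be set beside those of the lists library by library, as log2 CPM minus the mean of the vehicle libraries. Ddit4 was at 0.53, -0.30 and -0.23 in vehicle libraries 1, 2 and 4 and at 0.60, -0.32 and 1.09 in the treated ones, and the hypoxia list at 0.95, -0.20 and -0.74 and at 1.62, 0.22 and 2.36. Vehicle library 1 and PSB-KD107 libraries 1 and 4 were thus the highest for each, a pattern noticed after the values were seen, and the part of hypoxia targets in the level of Ddit4 was not tested. Sesn2 was at 0.66, 0.92 and 0.24 in the treated libraries, the ATF4 program at 1.86, 1.58 and 1.24, and the NRF2 list at 1.87, 0.88 and 0.25. Library 4 was the lowest treated library for each of these. Sesn2 was highest in treated library 2, and the ATF4 program and the NRF2 list in treated library 1. In vehicle libraries 1, 2 and 4, Sesn2 was at -0.16, -0.004 and 0.16. The NRF2 list was there at 0.47, -0.12 and -0.35, the reverse order, and the ATF4 program at 0.03, 0.05 and -0.09. Of the other genes that ATF4 induces, Eif4ebp1 was at 0.60, 0.80 and 0.70 and lowest in treated library 1, and Ddit4 was highest in treated library 4. In the treated libraries, Rragc was at 0.79, 0.66 and 0.27 and Rragd at 0.43, 0.34 and 0.29. The list of TFEB and TFE3 was at 1.00, 0.63 and 0.55. Library 1 was the highest and library 4 the lowest for each, an order that the ATF4 program and the NRF2 list shared. In vehicle libraries 1, 2 and 4, Rragc was at -0.03, 0.03 and -0.0005 and Rragd at -0.04, -0.0009 and 0.04. The list of TFEB and TFE3 was there at 0.11, -0.02 and -0.09, the reverse of the order of Rragd. With 3 libraries per group, such an order is a description, and no relation across libraries was tested.

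**Figure D5:**
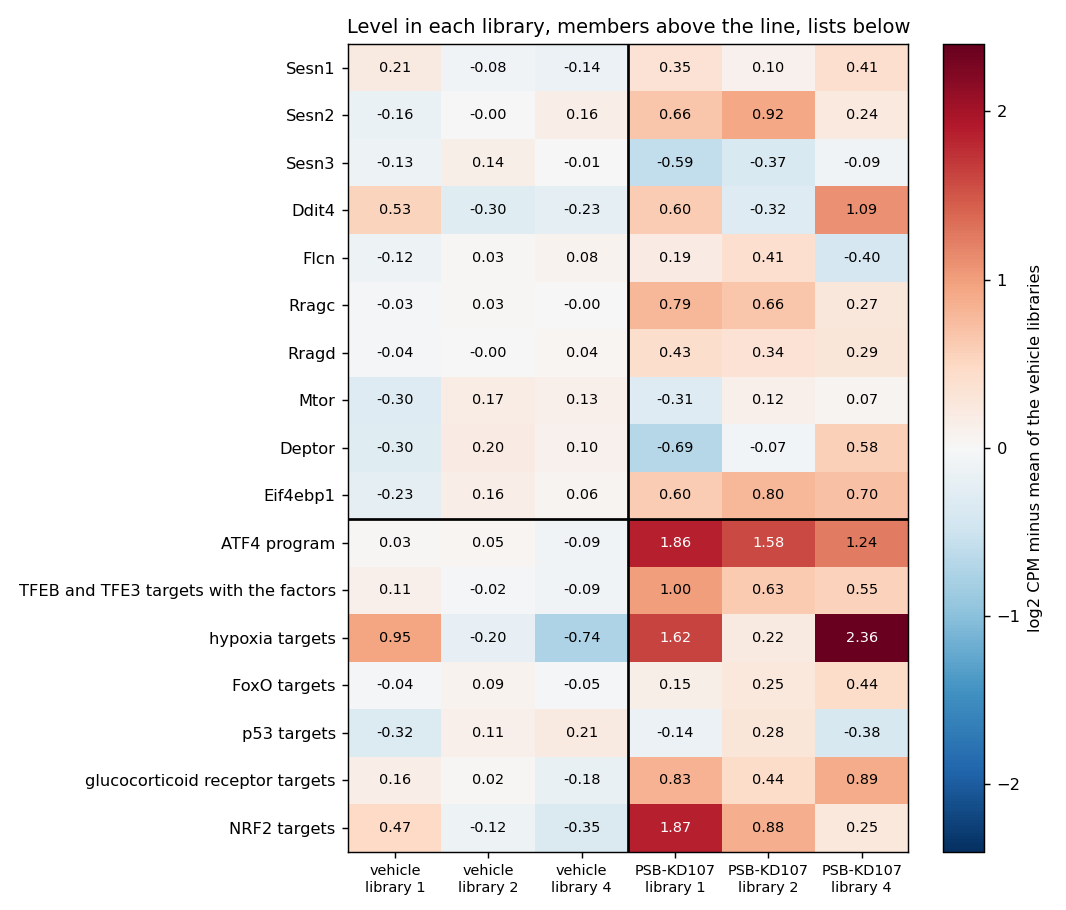
Level in each library (columns) of the 10 genes (rows above the line) and of the lists of targets of known inducers (rows below, mean over genes), as log2 CPM minus the mean of the vehicle libraries, from blue (lower) to red (higher). Eif4ebp1, Sesn2, Rragc and Rragd are above 0.2 in each treated library. Ddit4 and the hypoxia list are highest in PSB-KD107 library 4 (1.09 and 2.36), and Mtor stays between -0.31 and 0.17.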

How the data were processed

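Myoblasts of mdx mice treated with vehicle or PSB-KD107 were compared in 3 libraries per group. The authors sequenced polyadenylated RNA with directional kits in paired-end mode (100 cycles per end), aligned the reads to mm10 with STAR 2.3.0 and deposited raw counts per gene without normalization. The counting program, annotation and strand setting are not given in the sources used here. GENCODE M21 (GRCm38) gave names and coordinates and holds 46574 of the 47069 genes listed, and RefSeq (GRCm38.p6) the upstream sequences. The columns are numbered 1, 2 and 4 and the sample records 1, 2 and 3, so the libraries numbered 4 were assigned to their group only.

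Counts were filtered with filterByExpr, scaled by TMM and tested with edgeR 4.0.16 (quasi-likelihood, Benjamini-Hochberg over all genes tested, threshold 0.05) in R 4.3.3. CPM are TMM-normalized. For single genes, exact permutation tests over libraries were two-sided. Levels per kilobase used the union of exons in GENCODE M21. Alternatives were RLE factors, no filter, DESeq2 1.42.0, limma-voom 3.58.1, replicate blocks and each library left out, and, added after seeing the data, the 4 libraries numbered 1 and 2 with group only and the longest transcript as length. Tables were built in Python 3.11.15 with pandas 2.3.3. The comparison was tested on simulated counts in which 100 genes differed 4-fold and 100 others 2-fold. After its filter, which left 13936 genes, edgeR found 58.3% of 96 and 10.2% of 98 such genes (6 false calls of 72), and DESeq2 found 80.0% and 42.0% of the 100 and 100 (14165 genes, 65 false calls of 187).

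The genes and lists were chosen with earlier results of these data known. The genes named are the 10 members, their paralogs with Eif4e, the 3 genes of each other list with the smallest p-values, genes of the Rag, GATOR, TSC and mTOR complex lists at an unadjusted p-value under 0.05, the nearest 3 genes of each member at an unadjusted p-value under 0.05, and cell type markers. Lamtor2 and Gm9920 were named after their values were seen. A pair of genes (Slc7a11 and Bnip3) belongs to 2 lists each, and 4 symbols were matched through an older or newer name. Eif4ebp3, Klf15 and Zbtb16 were under the filter. No libraries were identical.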

Additional observations from a re-analysis of the deposited data

How the results depend on the processing

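Across 20 alternatives, Eif4ebp1, Sesn2, Rragc, Rragd, Sesn1 and Ddit4 had a positive log2 fold change in all 20 and Sesn3 a negative one in all 20. With no filter, edgeR called 8 genes, and with RLE factors or any library left out it called 0. The separate test of limma-voom also called 0. DESeq2 called 407 genes, and with a library left out between 164 and 763, the lowest counts being 164 without vehicle library 4 and 175 without vehicle library 2, and the highest 763 without PSB-KD107 library 2. DESeq2 gave 0.68 for Eif4ebp1 (adjusted p = 0.00387). The correlation of the deviations of same-numbered libraries was 0.63, 0.52 and -0.13 for numbers 1, 2 and 4, so not every number showed a shared shift and the main test has no block. Libraries of unlike number reached 0.64 (vehicle library 4 with PSB-KD107 library 2) and -0.70 (vehicle library 1 with PSB-KD107 library 2). These correlations therefore cannot tell which libraries are pairs. A pairing of numbers 1 and 2 was not tested further. With the replicate block on libraries 1 and 2, which leaves little to estimate the spread, edgeR called 2456 of the 14400 genes tested. Among these many calls were 7 of the 10 genes described here. The fit gave log2 fold changes of 0.87 for Sesn2 (adjusted p = 6.3e-04), -0.48 for Sesn3 (0.0134) and 0.34 for Flcn (0.0130). It gave 0.72 for Rragc (0.00122), 0.41 for Rragd (0.0079), 0.73 for Eif4ebp1 (0.00122) and -0.33 for Deptor (0.0167). It gave medians of 0.092 for the stress-induced inhibitors and -0.052 for the other amino acid sensors. The same 4 libraries without the block gave 0 calls, -0.32 for Deptor and medians of 0.098 and -0.050. With the replicate block over all 6 libraries, edgeR called 0 genes (Deptor -0.061) and DESeq2 called 638 of the 13493 genes it tested. Among the 638 were Rragc, which DESeq2 did not call without the block (0.56, adjusted p = 0.0457), and Eif4ebp1 (0.69, adjusted p = 1.5e-04). DESeq2 with this block gave -0.074 for Deptor, and limma-voom gave -0.056 for Deptor. With each library left out, over edgeR and DESeq2, the log2 fold change ranged from 0.46 to 0.79 for Sesn2, from -0.083 to 0.30 for Flcn, from 0.46 to 0.72 for Rragc, from 0.30 to 0.38 for Rragd, from -0.20 to 0.067 for Mtor, from -0.38 to 0.27 for Deptor and from 0.58 to 0.77 for Eif4ebp1. Medians ranged from 0.18 to 0.47 for the stress-induced inhibitors, 0.35 to 0.52 for the Rag-Ragulator list, -0.11 to 0.091 for the other amino acid sensors, 0.034 to 0.15 for TSC and Rheb, -0.066 to 0.015 for the substrates, 0.39 to 0.60 for TFEB and TFE3 targets and 0.10 to 0.96 for NRF2 targets. The cause of these shifts was not tested. The 10 genes had at least 548 counts in each library, and neither depth nor the number of libraries was varied.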
